A study of Mus musculus with 6 samples.

Results

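The genes described here encode channels and an exchanger for calcium, potassium and protons, most of them known from the sperm tail. The list held 10 genes: the CatSper pore subunits Catsper1, Catsper2, Catsper3 and Catsper4, the CatSper auxiliary subunits Catsperb, Catsperg1 and Catsperg2, the potassium channel Kcnu1, the proton channel Hvcn1 and the sperm sodium-proton exchanger Slc9c1. The list was drawn up by function, and mRNA probes were assigned to its genes through RefSeq accessions, with no measured value in that rule. Of the 10 genes, 9 had at least 1 probe, giving 11 of the 22464 mRNA probes on the array, which cover 19053 genes. Catsperg1 had no matched probe and was not analysed here.

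CatSper is a calcium channel of the sperm tail whose pore is built from 4 different subunits, each needed for the channel to form, with several auxiliary proteins around them. It opens as the inside of the sperm becomes more alkaline, and the calcium that enters drives the vigorous tail beat needed to reach and fertilise the egg. Kcnu1 encodes SLO3, a potassium channel that also opens on alkalinisation and sets the membrane voltage, Slc9c1 encodes an exchanger of the sperm tail that is controlled by voltage and cyclic nucleotides, and Hvcn1 encodes a voltage-gated proton channel known from phagocytes, B cells and human sperm.

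Whole testis of male C57BL/6 mice (labelled C57/BL6) was compared between 6 days after birth (neonatal) and 8 weeks (adult), with 3 arrays for each age. Each array stands for a separate group of mice of that age. The RNA was copied into cDNA, labelled with 1 dye and hybridised to arrays carrying lncRNA and mRNA probes. At 6 days the testis holds spermatogonia and somatic cells, and at 8 weeks all stages up to spermatids are present. In whole tissue, fewer cells of a type and less RNA per cell cannot be told apart.

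Levels are given as log2 of a spot's signal over the 75th percentile of its array, so that 0 is that percentile and 1 unit is a factor of 2. Values were floored at -7.22, and values at the floor have no order. The scanner software marked each spot as well above background or not, and marked uneven or outlying spots as outliers, which were left out of the tests. A probe was called when limma, fitted over all lncRNA and mRNA probes with the replicate number as a block, gave an adjusted p (Benjamini-Hochberg) no higher than 0.05 together with a change of 5-fold or more. Of the 11 probes, 10 could be tested, 8 were called higher in adult testis and 2 were called lower, against 12.6% of all 15121 tested mRNA probes called higher and 13.7% called lower. Of all called mRNA probes, 47.9% were higher in adult testis, a share that was 37.0% in the authors' own log2 values and 59.2% after normexp background correction. The median log2 fold change of all tested mRNA probes was -0.40, and under other scalings it lay between -0.84 and 0.03, while no tested probe of a listed gene changed direction. The 8 higher probes belonged to 7 genes, and both lower probes belonged to Hvcn1. The probe left untested, for Catsper3, had outlier marks on 2 of its 3 adult spots. Adult and neonatal values, with marked spots kept, did not overlap for any of the 11 probes. The same held for 72.5% of all 19310 mRNA probes tested that way, where chance would give 10%. Of the tested probes, 3 passed the filter on dim probes through the adult arrays alone and so had to differ.

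**Figure D1:**
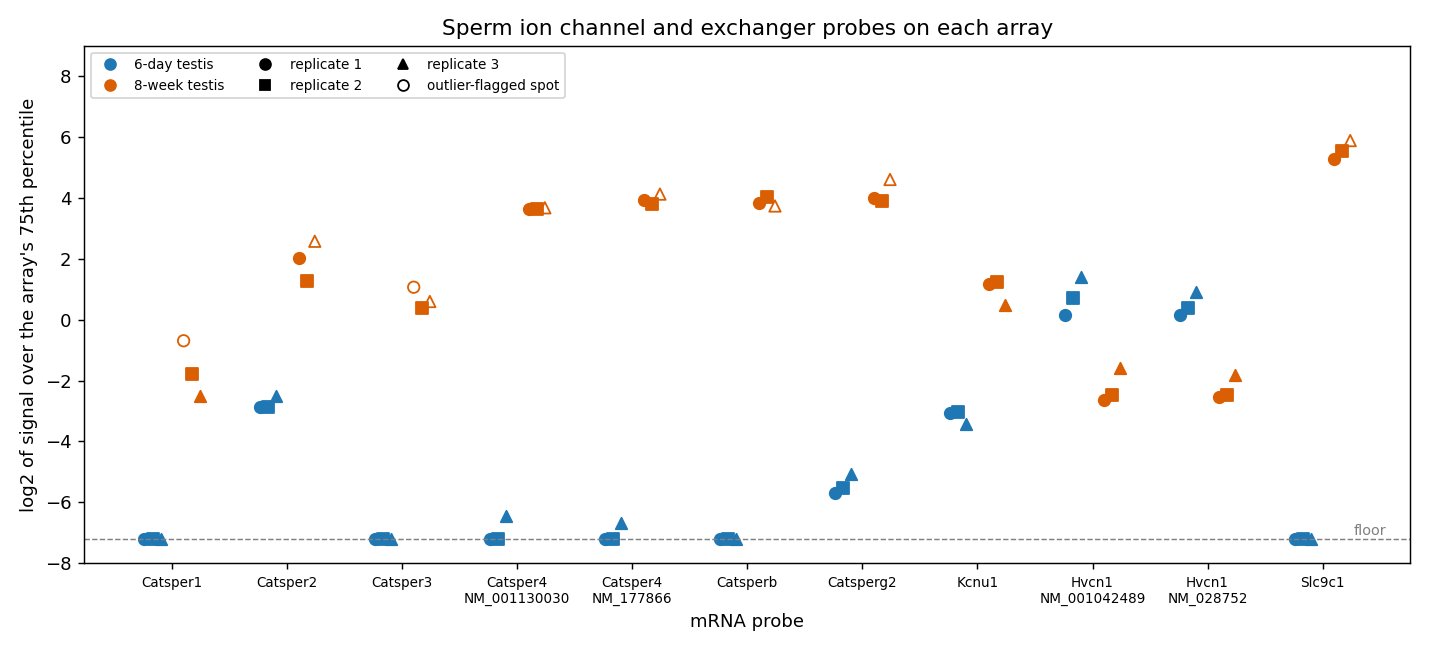
Level of each of the 11 probes on each of the 6 arrays, as log2 of signal over the array's 75th percentile (vertical axis), with 6-day testis in blue, 8-week testis in orange, 1 symbol shape per replicate and open symbols for outlier-marked spots. Adult symbols lie above neonatal ones for each probe except those of Hvcn1, and the dashed line is the floor at -7.22.

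Among the pore subunits, Catsper2 differed from Catsper1 and Catsper3 in that its probe was well above background on all 3 neonatal arrays. The Catsper2 probe read -2.88, -2.88 and -2.52 on neonatal arrays 1, 2 and 3, and 2.03, 1.26 and 2.58 on adult arrays 1, 2 and 3, the last from an outlier-marked spot. The adult arrays all lay above the neonatal arrays, with more scatter among the adults. The mean was -2.76 ± 0.21 (SD, n = 3) in neonatal and 1.65 ± 0.54 (SD, n = 2) in adult testis. The fit, which took the age difference from the 2 complete pairs and so left out neonatal array 3, gave a log2 fold change of 4.53 with an SE of 0.26 (limma adjusted p = 0.00119).

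The Catsper1 probe sat at the floor of -7.22 on every neonatal array, not well above background, and read -0.69, -1.78 and -2.51 on the adult arrays, the first from an outlier-marked spot. All adult arrays were high and all neonatal arrays low. For a probe whose spots of one age were all not well above background, the fold change is a lower bound. It sets the mean of the bright age against the mean, over the arrays of the dim age, of the lowest signal among probes well above background or the probe's own signal, whichever was higher. Such bounds hold for the processed signals only. For Catsper1 the adult level was at least 33.8-fold higher (limma adjusted p = 0.000895), with adult arrays 2 and 3 in the mean.

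Catsper3 was likewise not well above background on any neonatal array and read 1.07, 0.38 and 0.60 on the adult arrays, the first and the last from outlier-marked spots. Every adult array was far above every neonatal one. With the marked spots kept, the adult level was at least 240-fold higher (limma adjusted p = 2.1e-05 in the fit that kept such spots, in which 12.8% of mRNA probes were called higher), and with adult array 2 alone at least 195-fold. It too passed the filter through adult arrays only, so in that fit it had to differ.

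Catsper4 was read by 2 probes, made for different RefSeq transcripts. The NM_177866 probe was at -7.22, -7.22 and -6.69 on the neonatal arrays and at 3.93, 3.82 and 4.13 on the adult arrays. The NM_001130030 probe read -7.22, -7.22 and -6.45 in neonatal testis and 3.65, 3.65 and 3.68 in adult testis. Both probes were well above background on 1 of 3 neonatal arrays, array 3, and on all adult arrays, and the third adult spot of each was outlier-marked. The fit used pairs 1 and 2 alone, in which both probes were at the neonatal floor, so its log2 fold changes of 11.10 for NM_177866 and 10.87 for NM_001130030 (limma adjusted p = 0.000132 for both) are set against that floor.

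Both auxiliary subunits with a probe were called higher. Catsperb, which encodes a large membrane-spanning partner of the pore, was at the floor and not well above background on the 3 neonatal arrays and read 3.84, 4.04 and 3.74 on the adult arrays, the last outlier-marked. Its adult values lay within a narrow band far above the neonatal floor, at least 2291-fold higher (limma adjusted p = 0.000136). Catsperg2, which encodes one of the gamma subunits, read -5.68, -5.53 and -5.08 on the neonatal arrays, well above background on each, and 3.99, 3.91 and 4.61 on the adult arrays, the last outlier-marked. A low neonatal level was thus measured on all 3 arrays, and the mean was -5.43 ± 0.31 (SD, n = 3) in neonatal and 3.95 ± 0.06 (SD, n = 2) in adult testis. From the 2 complete pairs, without neonatal array 3, the fit gave a log2 fold change of 9.55 with an SE of 0.15 (limma adjusted p = 0.000155). Catsperg1 is a close paralogue on the same chromosome, and whether the Catsperg2 probe also reads Catsperg1 RNA was not tested.

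Kcnu1 was the one higher gene with all 6 spots well above background and free of outlier marks. Its probe read -3.07, -3.02 and -3.41 on the neonatal arrays and 1.18, 1.25 and 0.48 on the adult arrays. Neonatal testis thus gave a measurable SLO3 signal, with replicate 3 the lowest at both ages. Its mean was -3.17 ± 0.21 in neonatal and 0.97 ± 0.43 in adult testis (SD over 3 arrays), which gave a log2 fold change of 4.14 with an SE of 0.13 (limma adjusted p = 0.000142). Among the 11166 tested mRNA probes well above background on all 6 arrays, 5.41% had a larger rise than Kcnu1, 4.71% than Catsper2 and 0.627% than Catsperg2.

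The highest of the lower bounds belonged to Slc9c1. On the neonatal arrays its probe lay at the floor, not well above background, and it read 5.30, 5.55 and 5.89 on the adult arrays, the last outlier-marked. Adult testis was at least 6439-fold higher (limma adjusted p = 0.000128). After normexp background correction the log2 fold change was 10.42 for Slc9c1, 9.46 for Catsperb and 3.05 for Catsper1, and each was still called. All adult arrays were high and tightly grouped, and no neonatal array gave a measured level.

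**Figure D2:**
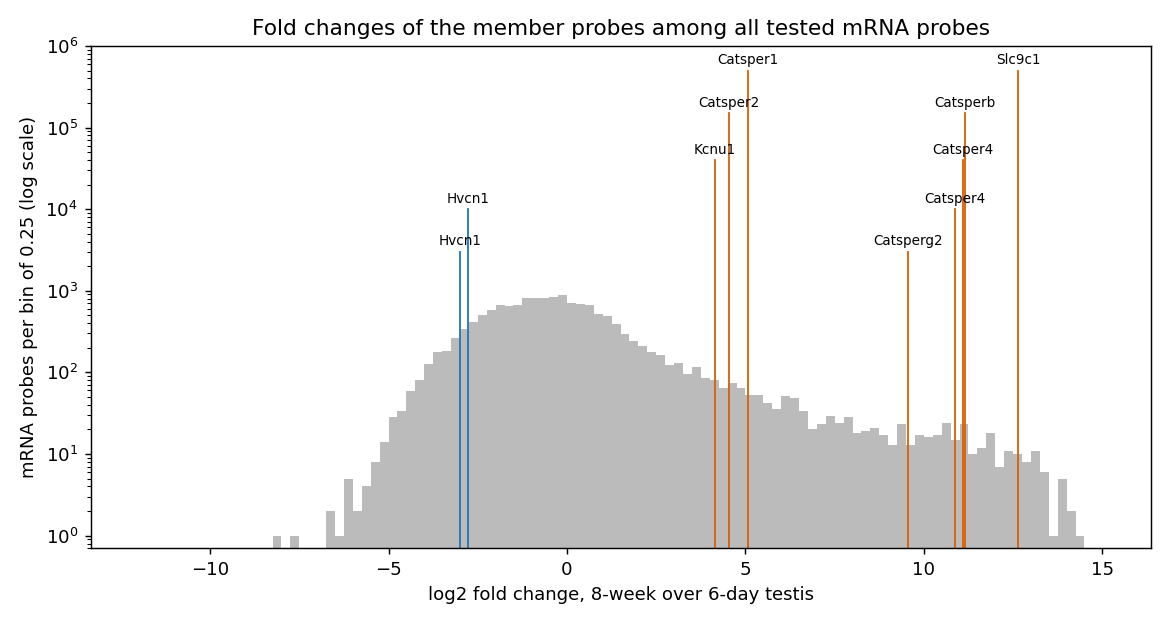
Histogram of fitted log2 fold changes, 8-week over 6-day testis (horizontal axis), of the 15121 tested mRNA probes (vertical axis, probes per bin of 0.25, log scale), with lines at the 10 tested probes of the listed genes. The higher probes run from 4.14 for Kcnu1 to 12.65 for Slc9c1, and the 2 Hvcn1 probes lie at -2.99 and -2.76; the values for Catsper1, Catsper4, Catsperb and Slc9c1 are set against floored neonatal spots.

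Hvcn1 went the other way. The NM_001042489 probe read 0.15, 0.71 and 1.40 on the neonatal arrays and -2.65, -2.48 and -1.60 on the adult arrays. The NM_028752 probe read 0.15, 0.39 and 0.91 in neonatal testis and -2.53, -2.48 and -1.82 in adult testis. On both probes every neonatal array was above every adult array, replicate 3 was the highest within each age, and all 6 spots were well above background with no outlier mark. The log2 fold change was -2.99 with an SE of 0.12 for NM_001042489 (limma adjusted p = 0.000203) and -2.76 with an SE of 0.11 for NM_028752 (limma adjusted p = 0.000176). Adult signal therefore remained measurable at 7.97-fold and 6.77-fold below the neonatal mean. Of the 11166 mRNA probes measured on all 6 arrays, 5.53% and 7.51% had a larger fall. Set against the median of all tested mRNA probes, the changes were -2.59 and -2.36, and between -2.63 and -2.11 under the other scalings.

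Replicates 1 and 2 of both ages shared one scan identifier in the scanner headers, and replicate 3 of both ages had another. Arrays sharing an identifier are taken here to be on one slide, and the second slide and replicate 3 cannot be told apart. Within the first slide, the log2 difference between ages ran from 4.26 to 12.65 over the higher probes, and within the second from 3.89 to 13.11, with outlier-marked spots kept. The Hvcn1 differences within the second slide were -3.00 and -2.73. Of the 11 probes, 7 had an outlier mark on adult array 3, where 31.9% of all mRNA probes carried one, so for most higher probes the test rested on 2 pairs. With the slide as a block, the same 8 higher and 2 lower calls were made. For the tested probes marked on adult array 3, that fit again took the age difference from the first slide alone. For them it is therefore no check on the slide.

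For each member probe measured on all 6 arrays without outlier marks, the mRNA probes of other genes with the closest pattern were found by Pearson r over the 6 arrays. As the arrays form 2 age clusters, such an r mostly reflects the age difference, together with any shared shift of replicate 3 within each age. Replicate 3 was the highest at both ages for Hvcn1 and its partners named below, and the lowest for Kcnu1 and its partners. For Kcnu1, 56 of 4380 candidate probes reached 0.99, led by Ngfr and Tmem91 (r = 0.9995 and 0.9994). Many more probes shared the Hvcn1 pattern: 242 of 4379 reached 0.99 for NM_001042489, led by Cstad, Tab1 and Sh3kbp1 (r = 0.9990, 0.9988 and 0.9987), and 342 for NM_028752, led by Syngr1, Sptbn1 and Ankmy2 (r = 0.9999, 0.9996 and 0.9996).

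Genes for other proteins of the CatSper complex were examined next. Of 10 further genes, 7 had a probe and 5 could be tested, and all 5 were called higher, with a median log2 fold change of 9.49 against -0.40 over all tested mRNA probes. Catsperz, a small cytoplasmic subunit, rose from -2.89, -2.71 and -3.12 to 6.40, 6.49 and 6.86 (log2 fold change 9.49, SE 0.20). Slco6c1, a transporter-like protein of the complex, stayed at the floor on the neonatal arrays, not well above background, and adult testis was at least 5074-fold higher; it passed the filter through adult arrays only and so had to differ. Trim69 rose by 11.60, Tmem262 by 8.49 and Catspere2 by 3.39 on the log2 scale. Efcab9, the calcium sensor that pairs with Catsperz, and C2cd6 had too few unmarked spots for the test. Their log2 fold changes with marked spots kept were 9.52 and 5.28 (limma adjusted p = 3.87e-05 and 2.66e-05), with Efcab9 well above background on 2 of 3 neonatal arrays.

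Among SLO channel relatives and LRRC gamma subunits, 5 of 7 genes were tested, 1 was called higher and 1 lower, with a median log2 fold change of -0.84. Lrrc52, the gamma subunit that partners SLO3, was not well above background on the neonatal arrays and read 2.71, 2.67 and 2.80 on the adult arrays, at least 965-fold higher (limma adjusted p = 0.000139). As it passed the filter through adult arrays only, it had to differ. Kcnma1, the SLO1 channel found in many tissues, had a log2 fold change of -2.05, which did not reach the fold threshold. Kcnt1 was called lower on 1 of its 2 probes (log2 fold changes -2.43 and -1.14), with 2 of 3 adult spots of the called probe well above background.

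Of 12 genes for pores of voltage-gated calcium channels and TPC channels, 11 were tested, 0 were called higher and 2 lower, Cacna1c and Cacna1g, with a median log2 fold change of -0.10. At an unadjusted p of at most 0.05 with no fold threshold, limma gave 3 higher and 4 lower. Both Cacna1g probes were called (log2 fold changes -2.33 and -2.52), as were 2 of 4 Cacna1c probes, of which 1 was not well above background in adult testis. Its call rests on the floor, against which it was 5.45-fold lower, as the bound is at least 4.17-fold, under the threshold; it passed the filter through neonatal arrays only and had to differ. The other was well above background on 1 of 3 adult arrays, in an outlier-marked spot left out of the test. Its remaining adult spots were at the floor, so this call rests on the floor too, and the call was lost with marked spots kept (limma adjusted p = 0.438). Of 12 sodium-proton exchangers, 9 were tested, and the median log2 fold change was -0.16. Slc9b1, an exchanger found in sperm, read -7.04, -6.89 and -7.22 on the neonatal arrays, well above background on 1 of them, and 2.21, 1.27 and 1.79 on the adult arrays. It was the one exchanger of that list called higher (log2 fold change 8.70, SE 0.34), a size that is uncertain with such dim neonatal spots. Slc9b2 was the one called lower (-2.96, SE 0.23), though with 1 of 3 adult arrays well above background that size is uncertain too.

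Of 13 genes for sperm cyclic AMP, pH and ion pumping, 10 were tested, 4 were called higher and 0 lower by limma (5 and 2 at an unadjusted p of at most 0.05), with a median log2 fold change of 0.65. With outlier-marked spots kept, 12 were tested, 6 were called higher and the median was 1.97. Ppp3r2, the testis form of the calcineurin regulatory subunit, rose by 9.90, with 2 of 3 neonatal arrays well above background, and Camk4, a calcium-dependent kinase, by 3.67 on the log2 scale. Cftr, a chloride and bicarbonate channel, rose by 3.53. Atp1a4, the sodium pump subunit of sperm, was at least 33.1-fold higher; no neonatal array read it well above background, so it passed the filter through adult arrays only and had to differ. Adcy10, the bicarbonate-activated adenylyl cyclase, and Ppp3cc could be fitted only with outlier-marked spots kept, at log2 fold changes of 6.69 and 2.97.

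**Figure D3:**
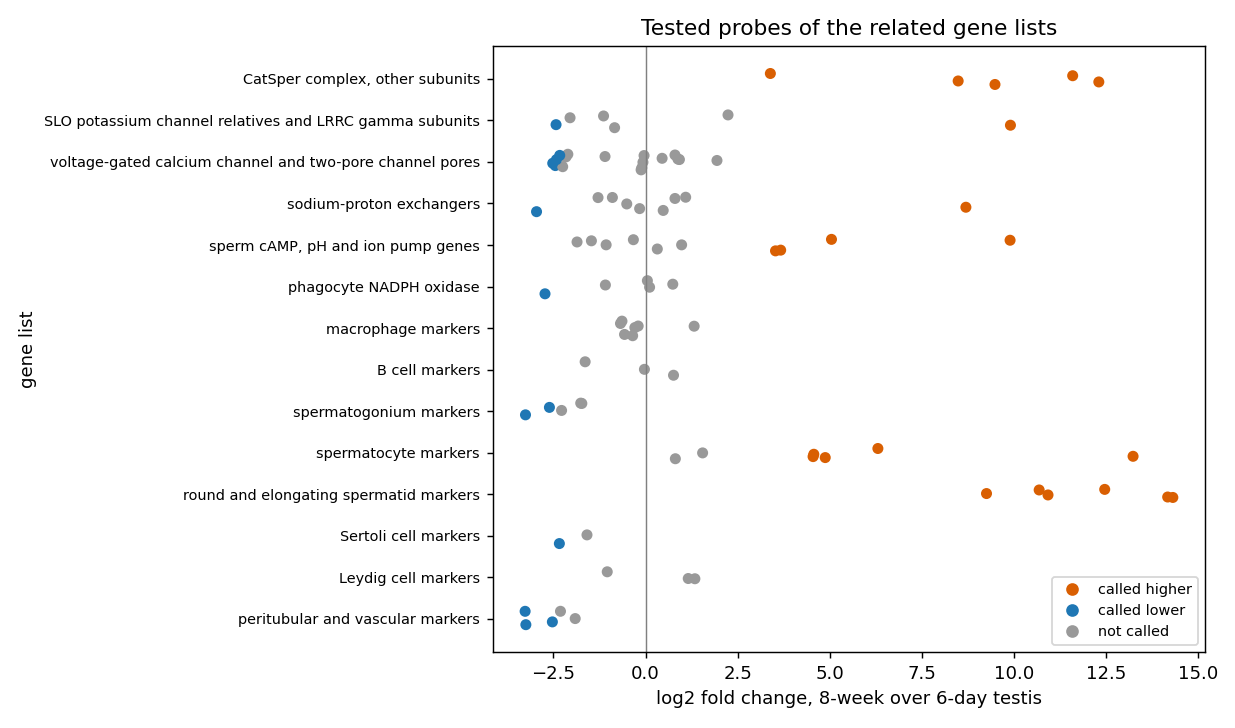
Fitted log2 fold change, 8-week over 6-day testis (horizontal axis), of each tested probe in the 14 related gene lists (vertical axis), coloured by call. Points of the CatSper complex list and of the spermatid markers all lie above 3, and no macrophage or B cell marker probe is called.

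Markers of later germ cells were set beside the higher genes. Of 7 markers of round and elongating spermatids, all 6 tested were called higher (Acrv1, Tnp1, Tnp2, Prm1, Prm2 and Tssk1), with a median log2 fold change of 11.70. The summed signal of a list, in multiples of each array's 75th percentile, covers all its probes, tested or not, with outlier-marked spots kept. For spermatids it was 0.676, 0.714 and 0.801 on the neonatal arrays and 1080, 1250 and 1440 on the adult arrays, with Prm2 the brightest in adult testis. Of 7 spermatocyte markers, 3 of 5 tested were called higher, Spo11, Piwil1 and Pgk2, with a median of 4.67, while Sycp1 and Mybl1 were not called (log2 fold changes 0.81 and 1.55). With outlier-marked spots kept, all 7 were tested and the median was 3.03, with Hormad1 also called (3.03) and Sycp3 not (0.09, limma adjusted p = 0.945). The summed signal of the list went from 18.7, 15.1 and 11.2 to 224, 243 and 239, with Pgk2 the brightest in adult testis. The part of these cells in the rise of the channel genes was not tested.

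Hvcn1 is known from immune cells, and markers of those cells were set beside its fall. Of 12 macrophage markers, 7 were tested and 0 were called in either direction by limma (1 higher and 2 lower at an unadjusted p of at most 0.05), and the median log2 fold change was -0.35. With outlier-marked spots kept, 10 were tested, 0 were called and the median was -0.40. The genes gained in that fit were Adgre1, C1qb and Mrc1 (log2 fold changes -0.86, -0.82 and 0.37). Their summed signal was 12.5, 12.4 and 14.3 on the neonatal arrays and 10.6, 9.94 and 12.0 on the adult arrays, with C1qc the brightest in neonatal testis; no array read Fcgr1 well above background. Of 4 B cell markers, 3 were tested and 0 were called by limma (1 higher and 1 lower unadjusted), with a median of -0.03. No array read Cd79a well above background. Of 6 subunits of the phagocyte NADPH oxidase, whose activity Hvcn1 supports, 5 were tested, the median log2 fold change was 0.05, and Cyba was called lower (-2.73, SE 0.27), with 1 of 3 adult arrays well above background, so that the size is uncertain. Cybb, its catalytic partner, had a log2 fold change of 0.11.

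Markers of spermatogonia and of somatic cells were also set beside Hvcn1. Of 7 spermatogonium markers, Stra8 and Sohlh1 were called lower among 4 tested, with a median of -2.45 (log2 fold changes -2.61 and -3.26), and no array read Gfra1 well above background. With outlier-marked spots kept, 5 of 6 tested markers were called lower and the median was -2.97. Their summed signal went from 126, 134 and 124 to 25.9, 27.8 and 23.2, with Uchl1 the brightest. Among Sertoli cell markers, Gata4 was called lower of 2 tested, the median was -1.97, and the summed signal went from 44.2, 44.7 and 36.3 to 13.4, 11.7 and 10.3, with Wt1 the brightest. Pecam1 and Cdh5 were called lower among 4 peritubular and vascular markers, all tested, with a median of -2.42, whose summed signal went from 25.8, 27.2 and 35.2 to 5.59, 4.98 and 7.86, with Myh11 the brightest. Of 6 Leydig cell markers, 3 were tested and 0 were called by limma (2 higher and 1 lower unadjusted), with a median of 1.16. The sum over the list was 31.5, 34.7 and 30.0 on the neonatal and 74.2, 58.0 and 55.1 on the adult arrays. The brightest was Hsd3b1 in neonatal testis and Insl3 in adult testis, and Insl3, outlier-marked on all 3 neonatal arrays and on adult arrays 2 and 3, was not tested. With marked spots kept, Insl3 was called higher (log2 fold change 3.49, limma adjusted p = 0.000443). In that fit Cyp11a1, Star, Cyp17a1, Hsd3b1 and Hsd17b3 were not called (1.29, 1.34, 0.77, -1.07 and -2.04). The part of each cell type in the fall of Hvcn1 was not tested.

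The array also held lncRNA probes that the study's annotation pairs with listed genes. That annotation covers lncRNAs the study had selected for a change between these ages, and the probes taken from it may not be all at these genes, so their direction is no independent evidence. Of 4 such probes, 3 were tested and all 3 were called higher, against 19.9% of tested lncRNA probes, and 2 of the 3, AK015499 and AK040480, passed the filter on dim probes through adult arrays alone. The uc008lyy transcript, which shares exons with Catsper2 on the same strand, read -6.15, -6.22 and -5.94 on the neonatal arrays and -2.15, -2.73 and -2.22 on the adult arrays. It was well above background on all 6 arrays, and its log2 fold change was 3.73 with an SE of 0.14 (limma adjusted p = 0.000173). After normexp background correction the log2 fold change of uc008lyy was 2.50, and it was still called. At Catsperb, AK015499, from intergenic sequence, was at the floor in neonatal testis, read 1.46, 1.33 and 1.73 in adult testis and was at least 394-fold higher there (limma adjusted p = 0.00016). After normexp background correction the log2 fold change of AK015499 was 6.89, and it was still called. AK040480, which shares exons with Catsperb, was scattered, at -5.39, -2.23 and -2.81 on the adult arrays and not well above background on the neonatal ones, at least 13.4-fold higher (limma adjusted p = 0.0089). Its call was lost in 6 of 24 alternatives, among them leaving out replicate 2 (limma adjusted p = 0.0755) or replicate 3 (0.0995). The uc007qsa transcript, divergent from Catsper3, could not be tested and had neonatal spots not well above background; with marked spots kept it was at least 193-fold higher. Whether the probes that share exons also read the mRNA, or the mRNA probes also read these transcripts, was not tested.

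Promoter sequences were read from RefSeq, GRCm38.p6, as 250 bases before and 50 after the gene start, for 5 of the 9 genes with a probe: Catsper2, Catsper3, Catsper4, Catsperb and Slc9c1. They differed widely in base composition. Catsper2 had 74.7% GC and a CpG ratio, observed over expected, of 1.01, against medians of 52.7% and 0.384 over 32851 promoters. Catsperb and Slc9c1 had 38.0% and 37.3% GC, with CpG ratios of 0.0924 and 0.289. Catsper4 and Catsper3 lay between in GC, with 46.7% and 52.3%, and had CpG ratios of 0.123 and 0.147.

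Motifs were searched as exact letters on both strands. The MYB core AACTG was found in Catsperb with 4 matches, in Slc9c1 with 3 and in Catsper2 with 1, and in 44.8% of all promoters. The CCAAT box CCAAT was in the same 3 promoters and in 37.4% of all, and the GC box GGGCGG was in Catsper2 with 3 matches and in Slc9c1 with 1, and in 35.7% of all. The cyclic AMP response element TGACGTCA and the TATA box TATAAA were in 0 of the 5, and in 1.79% and 13.6% of all promoters. The half-site TGACG, which lies within that element, was in Catsper2 alone of the 5 and in 20.8% of all, as was GTTNCC, the RFX half-site, in 45.3% of all. The Catsper2 promoter is printed with those of Catsperb and Slc9c1 as the highest and the lowest in GC of the 5. Capitals mark GGGCGG in Catsper2 and AACTG or its reverse complement in the others.
Catsper2 (GRCm38.p6, chr2:121413743-121414042, minus strand): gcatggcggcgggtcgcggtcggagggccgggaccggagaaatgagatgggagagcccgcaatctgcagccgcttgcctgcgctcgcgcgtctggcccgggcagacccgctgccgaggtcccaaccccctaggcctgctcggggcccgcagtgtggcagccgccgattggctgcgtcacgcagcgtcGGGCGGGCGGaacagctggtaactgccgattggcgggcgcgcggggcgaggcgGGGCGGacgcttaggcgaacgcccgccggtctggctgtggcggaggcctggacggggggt
Catsperb (GRCm38.p6, chr12:101404423-101404722, plus strand): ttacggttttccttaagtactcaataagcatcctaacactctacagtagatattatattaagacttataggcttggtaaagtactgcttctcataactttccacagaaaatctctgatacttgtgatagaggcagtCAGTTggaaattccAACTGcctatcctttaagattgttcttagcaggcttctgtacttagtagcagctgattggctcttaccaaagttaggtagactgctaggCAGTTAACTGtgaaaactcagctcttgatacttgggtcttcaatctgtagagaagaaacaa
Slc9c1 (GRCm38.p6, chr16:45535016-45535315, plus strand): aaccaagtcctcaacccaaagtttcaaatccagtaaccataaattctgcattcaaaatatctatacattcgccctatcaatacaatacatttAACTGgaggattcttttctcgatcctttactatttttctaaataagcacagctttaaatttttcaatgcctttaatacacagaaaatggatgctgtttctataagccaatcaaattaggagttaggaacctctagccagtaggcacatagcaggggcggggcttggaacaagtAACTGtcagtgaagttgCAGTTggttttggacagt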

How the data were processed

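RNA of whole testis from 3 neonatal and 3 adult replicates was copied into cDNA with an oligo dT primer, labelled with Cy3 and hybridised to 1-colour arrays. The authors deposited scanner files of Agilent Feature Extraction 10.5.1.1 (version from the submitters' processing notes), whose processed signals are intensity values after background subtraction. A table of the authors' log2 values was deposited too, which the study's methods describe as quantile normalised and which was used as an alternative. From the intensity values, log2 of the processed signal over the array's 75th percentile was computed, floored at -7.22, which is where a signal of 5 falls on the array where it scales highest. Control spots were left out, and outlier-marked spots were left out of the tests but kept in the summed marker signals. A probe entered the test when 1 or more arrays read it well above background and 2 or more pairs were complete. The test was limma 3.58.1 (lmFit and eBayes, R 4.3.3), blocked on the replicate number, since the study's methods name a paired test. Deviations from the age means of same-numbered arrays correlated at 0.341, 0.248 and 0.587 over 14886 probes; neonatal and adult arrays with different numbers on the same slide gave 0.286 and 0.323. The p-values measure how the age difference varied between these pairs, with the spread drawn in part from all probes by limma. Neonatal values at the floor add no spread of their own, so p-values of probes floored there rest on the adult spots.

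RefSeq accessions were matched to genes of GRCm38.p6 for 97.5% of mRNA probes. A gene with several probes counted as called when any of its probes was. Named genes are every listed gene, the called genes of each related list (all when 6 or fewer, otherwise the 3 with the largest change in each direction), and the 3 closest patterns; other genes named were chosen after their values were seen. Some values that these rules call for are not reported here. Members and lists were chosen with earlier results of these data known. The normexp alternative used median spot signals with an offset of 50, since the files used here hold no mean signals. Between 65.9% and 69.8% of probes were well above background per array, and the 3 arrays per age limit the precision.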

Additional observations from a re-analysis of the deposited data

How the results depend on the processing

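Against 8 higher and 2 lower calls among the 10 tested probes, the fit with no replicate block gave the same counts, 8 and 2, so the pairing changed no call of a listed gene. No log2 fold change of a listed gene or its lncRNAs changed sign in any of the 24 alternatives it could be fitted in. Kcnu1 and both Hvcn1 probes were called in all 24, from 3.82 to 4.38 for Kcnu1 and from -3.32 to -2.54 for Hvcn1. The other higher probes could be fitted in 20, with ranges of 3.05 to 6.90 for Catsper1, 4.27 to 4.72 for Catsper2, 8.68 to 11.05 and 9.31 to 11.57 for the Catsper4 probes NM_001130030 and NM_177866, 9.46 to 13.30 for Catsperb, 8.58 to 9.60 for Catsperg2 and 10.42 to 14.27 for Slc9c1. Except for Catsper2, the lowest came with normexp, and for the probes set against floored neonatal spots the highest came with no floor. With outlier-marked spots kept, Catsper3 was also called and 9 probes were higher. Of the marker lists, spermatogonium and Sertoli cell genes called lower then went from 2 to 5 and from 1 to 2, and Leydig cell genes called higher from 0 to 1, with medians of -2.97 for spermatogonium and -1.65 for Sertoli cell genes; the gained genes could be tested only then, except Uchl1, whose log2 fold change went from -2.28 to -2.37 and past the fold threshold. The methods' test on pairs, adjusted by Benjamini-Hochberg, did not call Catsper1 (log2 fold change 5.08, adjusted p = 0.0806) or Catsper2 (4.53, adjusted p = 0.0897), and unadjusted did not call Catsper2 (4.53); it called 1263 mRNA probes lower after adjustment. Leaving out one pair gave 1 to 7 higher calls among the listed genes, and leaving out single arrays without the block 1 to 8 (2 without adult array 1 and 1 without adult array 2): most higher probes then had no second unmarked adult spot and could not be tested. Over all mRNA probes, leaving out one pair gave 847 to 1870 higher and 920 to 2026 lower calls, and single arrays without the block 912 (without adult array 2) and 922 (without adult array 1) to 1921 higher and 992 and 1020 (without neonatal arrays 2 and 1) to 2151 lower, with fewer probes tested. A fold threshold of 2 gave 3530 higher and 5527 lower mRNA probes. The authors' log2 values gave 3873 lower and normexp 1034; the cause was not tested. The lncRNA AK040480 was not called after normexp (2.14), with no filter on dim probes (3.75), by the methods' test (3.75), or without replicate 2 or 3 (range over pairs left out 3.13 to 4.70). Spots near background limit the neonatal levels of 6 of the 11 probes.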
